A study of Drosophila melanogaster with 3 samples.

Results

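The dosage compensation genes of Drosophila melanogaster were examined as binding sites of su(Hw), a zinc finger protein of chromatin insulators. The set held 8 of the 17257 protein-coding and noncoding RNA genes of the annotation: roX1, roX2, msl-1, msl-2, msl-3, mle, mof and Clamp. They were chosen by symbol, and each was taken with 5 kb either side. Binding was measured by chromatin immunoprecipitation sequencing in 3 biological replicates of a single group, so there was no contrast between conditions. The flies carried a transgene for su(Hw) with enhanced GFP at its C terminus. Whole embryos of both sexes, 0 to 24 hours old, were pooled. The tag was precipitated with an antibody against GFP, per the sample descriptions, although the antibody field names su(Hw). Male and female chromatin therefore cannot be told apart, and neither can the tissues and stages of the embryo.

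In flies, dosage compensation raises transcription of the single X chromosome of males. The MSL complex does this: msl-1 and msl-2 encode its scaffold and its male-limiting subunit, msl-3 a chromodomain subunit, mle an RNA helicase and mof the acetyltransferase that marks histone H4. The noncoding RNAs roX1 and roX2 are made from the X, join the complex and are also among the places where it first settles. Clamp encodes a zinc finger protein that binds GA repeats and brings the complex to the X. The protein su(Hw) is not a member of the complex. It is known for the gypsy insulator and for repressing neuronal genes in the female germ line.

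A peak was called at 5 of the 8 genes, and mostly near starts that these genes share with a neighbour or that belong to a neighbour. The authors' thresholded list of 6127 peaks placed 8 summits in the gene bodies or within 5 kb: 2 each at roX2, msl-2 and msl-3, and 1 each at mof and Clamp. None was placed at roX1, msl-1 or mle. Of the 6 protein-coding members 4 had a summit, and of the 2 noncoding ones 1. By the same rule 59.2% of all protein-coding genes had one, 62.6% of those between 2321 and 5922 bp long, the range of the coding members, and 39.5% of all noncoding RNA genes. The share among the dosage compensation genes thus lay near that of genes at large. The 8 summits had ranks from 2872 to 6117 by the authors' signal, with a median of 4722, where 3064 is the middle of the list. With only those summits kept that were among the strongest 6127 peaks of both remaining replicates, 3 genes had a summit when replicate 1 or replicate 2 was left out, and 5 when replicate 3 was.

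**Figure D1:**
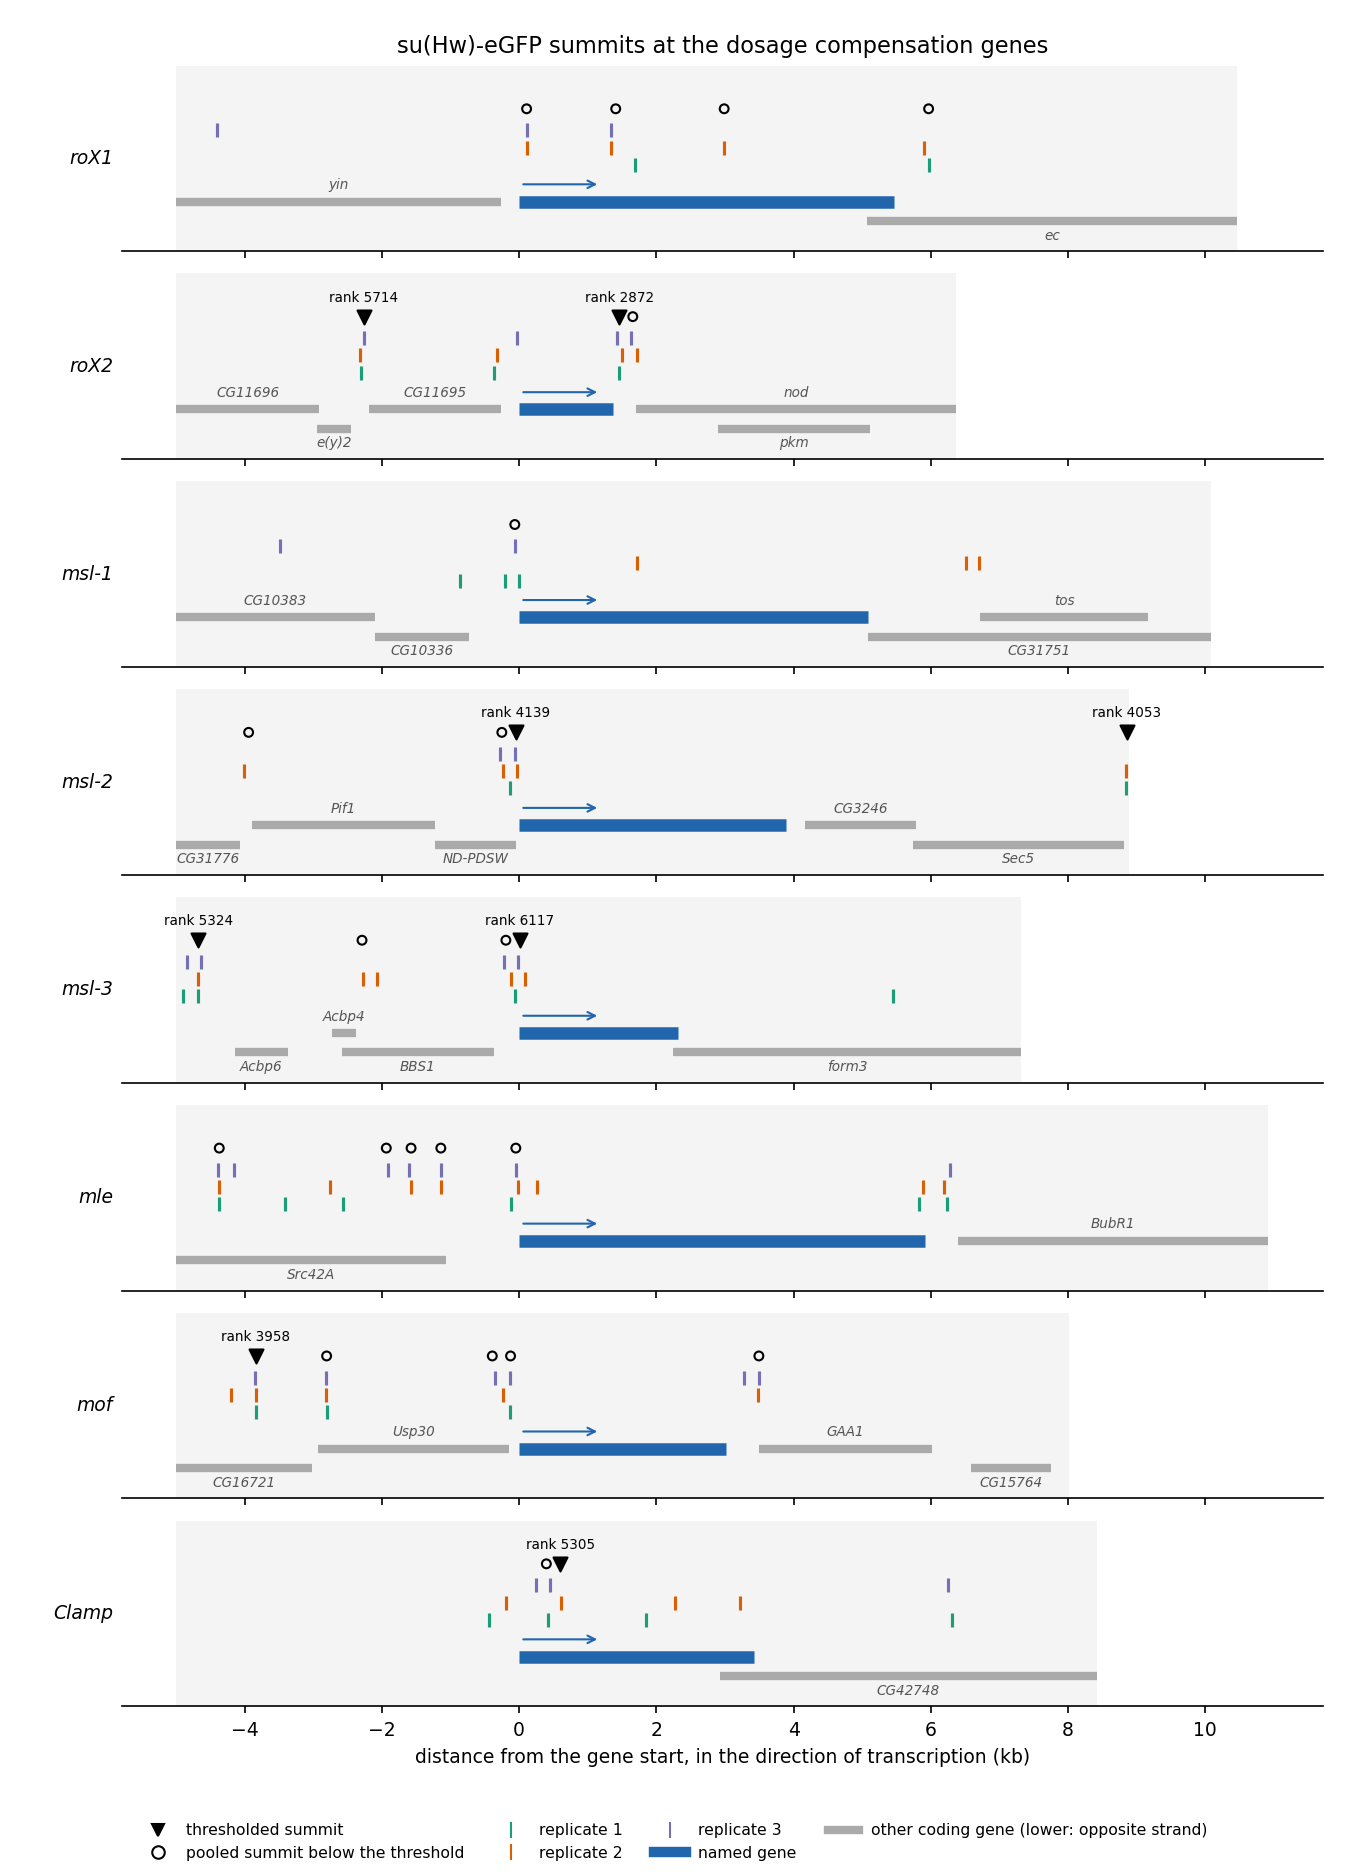
Summits at the 8 genes, each drawn from 5 kb before its start to 5 kb past its end; the x axis is the distance from the gene start in kb, in the direction of transcription. Triangles are thresholded summits with their rank, circles are pooled summits below the threshold, coloured ticks are summits of the 3 replicate lists and bars are genes; roX1, msl-1 and mle have no triangle, and those of msl-2 and msl-3 near 0 lie at shared starts.

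Sequences at and near the summits are given for the sites on which the results turn. The first pair are the stretches between the starts of msl-2 and its neighbour ND-PDSW and next to the start of msl-3, since these are the 2 members with a thresholded summit in their own promoter. Both are release 6 (dm6) sequence on the minus strand, from which msl-2 and msl-3 are read, and each ends at the base before the gene. Capitals mark GGTCACAC and TATCGATA, words known from Drosophila core promoters, which were picked after these sequences were seen.
msl-2 to ND-PDSW, chr2L:3466113-3466156: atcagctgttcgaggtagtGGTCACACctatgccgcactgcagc
msl-3 side of the gap to BBS1, chr3L:7125534-7125683: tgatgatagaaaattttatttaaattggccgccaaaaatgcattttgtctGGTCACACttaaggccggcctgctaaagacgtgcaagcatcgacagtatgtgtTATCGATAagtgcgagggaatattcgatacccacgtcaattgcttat
Both stretches held GGTCACAC, and the second also held TATCGATA. The gap between the annotated starts was 44 bp at msl-2 and 371 bp at msl-3.

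The second set are stretches compared with the known su(Hw) consensus, a 12-base sequence around TGCATA. For the Acbp3, nod and Clamp sites, each is the best match within 100 bp of the summit, and for roX1 it is the match nearest to a pooled summit. They are printed in the direction of the consensus, and capitals mark the 12 bases compared. The Acbp3 site near msl-3 had 1 mismatch, and the nod site near roX2 and the Clamp site had 2, as had the best matches, not printed, at Cog3 and Sec5, at msl-3 and at Usp30. The last stretch, inside roX1, had 1 but no thresholded summit, and exact matches elsewhere in the loci had no summit near them.
Acbp3 site, chr3L:7130162-7130191, plus strand: cttcaaaatTATAGCATACTTttaggaggt
nod site, chrX:11580485-11580514, minus strand: gaggatcggTATTGCCAACTTattaaaaca
Clamp site, chr2L:22168586-22168615, plus strand: ccttttattTACTGCAGCTCTgtcgcgctt
roX1 start, chrX:3862634-3862663, plus strand: ccgatcgatCACTGGATATTTcacttaatt
The last sequence is from roX2 and carries GA repeats of the kind that Clamp protein binds; GAGAGAGA, searched on both strands, is in capitals.
roX2 GA repeats, chrX:11580193-11580294, plus strand: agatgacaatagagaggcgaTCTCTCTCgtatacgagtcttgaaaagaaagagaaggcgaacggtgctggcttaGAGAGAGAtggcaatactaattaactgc

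The strongest site of the set lay just past roX2. Its peak spanned 11580260 to 11580783 on X with a pooled signal of 425, the peak caller's own value on a scale that the files do not define. The summit lay 90 bp beyond the 3′ end of roX2 (11579065 to 11580432, plus strand) and 1457 bp from its start. It fell in the promoter window of the neighbour nod, which encodes a kinesin-like protein of chromosome segregation. A promoter window here runs from 1000 bp before to 100 bp after the start of a transcript of a protein-coding or noncoding RNA gene. The peak ranked 2872 in the pooled list, 2258 in replicate 1, 4374 in replicate 2 and 3158 in replicate 3, so every replicate had it among its 6127 strongest, here called top-ranked. The GA repeats printed above lay inside roX2, 306 and 252 bp from this summit. No GAGAGAGA lay within 100 bp of it, although the nearer repeat, at 11580267 to 11580274, fell inside the peak, close to its edge. All thresholded peaks in these loci had the same deposited width of 524 bp, so whether this edge is a measured boundary is not known.

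The second site at roX2 lay 2267 bp upstream of the gene, between e(y)2, which encodes a small subunit of transcription and export complexes, and CG11695. Its pooled rank was 5714. Replicate 3 ranked it 4869, but replicates 1 and 2 ranked it 10697 and 9869, so only replicate 3 had it top-ranked. At the start of roX2 itself the pooled list of 30000 peaks, weak ones included, held no summit in the promoter window. The replicate lists held weak ones there, of rank 20053, 26645 and 15977 in replicates 1, 2 and 3.

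At roX1 (X, 3857230 to 3862697, minus strand) no summit reached the threshold. The pooled list held 4 weak summits within 5 kb, 3 of them inside the gene. The best, 109 bp inside from the first start, had rank 10571. Replicates 2 and 3 ranked it 12413 and 11395, and replicate 1 had no peak in the promoter window. The 12-base stretch with 1 mismatch printed above lay 61 bp from this weak summit. The nearest thresholded summit was 5971 bp upstream of roX1, inside yin and in a promoter window of yin and CG2930, with rank 4118.

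The gene for the male-limiting subunit, msl-2 (2L, 3462218 to 3466112, minus strand), had the best-ranked peak of any member in its own promoter. The summit lay 50 bp before its start and 5 bp inside the 5′ UTR of ND-PDSW, which encodes a subunit of mitochondrial complex I. This peak spanned 3465900 to 3466423 and had a pooled signal of 321 and rank 4139. Its ranks were 5947, 2964 and 4557 in replicates 1, 2 and 3, so it was top-ranked in all of them, most narrowly in replicate 1. The other summit at msl-2 lay 4967 bp past its 3′ end, just inside the 5 kb limit, in the promoter windows of Sec5, which encodes an exocyst subunit, and Cog3, which encodes a Golgi tethering subunit. This summit had pooled rank 4053 and ranks 3715 and 3304 in replicates 1 and 2. Replicate 3 had no peak within 200 bp of it among all its 30000.

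The start of the scaffold gene msl-1 (2L, 18683720 to 18688800, minus strand) lay just under the threshold. A pooled summit 63 bp before its start ranked 7020, with a signal of 211. Replicates 1 and 3 ranked their own summits there 6492 and 6448, and replicate 2 had none in the window. The best peak of replicate 2 in the locus, of rank 6558, lay 1626 bp past the 3′ end of msl-1. The first thresholded summit outside the limit lay 5220 bp upstream, in an intron of CG10383, with rank 5666.

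The start of msl-3 (3L, 7123213 to 7125533, minus strand) lay just over the threshold. Its summit was 6 bp inside the gene, in the 5′ UTR, and also in the promoter window of BBS1, which encodes a protein of the ciliary BBSome. With a signal of 237 it ranked 6117 of 6127, that is, among the last peaks kept. The peak ranked 6065 and 5643 in replicates 1 and 2 and 7537 in replicate 3, so replicate 3 did not have it top-ranked. The Acbp3 site, 4676 bp upstream of msl-3, ranked 5324. It ranked 4523 in replicate 3 but 8193 and 7057 in replicates 1 and 2. Acbp3 encodes an acyl-CoA binding protein. Its site outranked that at the start of msl-3 in the pooled list and in replicate 3, and ranked behind it in replicates 1 and 2.

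The acetyltransferase gene mof (X, 5873840 to 5876853, minus strand) had its only thresholded summit 3842 bp upstream, in the promoter windows of Usp30, which encodes a deubiquitinating enzyme, and CG16721. It had rank 3958, and ranks of 5314, 3796 and 5026 in replicates 1, 2 and 3, all top-ranked. The start of mof itself carried a weaker summit, 125 bp upstream, of pooled rank 7402. This weaker summit was in every replicate list, with ranks 10497, 12214 and 8475 for the best peak of the window. The 3′ end of Usp30, at 5877000, lies next to it.

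The helicase gene mle (2R, 5974857 to 5980778, minus strand) had 5 weak pooled summits within 5 kb and none above the threshold. The best-ranked peak of the locus in every replicate lay just past the 3′ end of mle. BubR1, which encodes a spindle checkpoint kinase, starts at 5974385, also on the minus strand. This peak thus lay between mle and BubR1, in the promoter window of BubR1. In replicate 1 its summit was 322 bp past the end with rank 5343, in replicate 2 it was 276 bp past with rank 8161 and in replicate 3 it was 363 bp past with rank 9002. It was thus top-ranked in replicate 1 alone, and the pooled list held no summit there. BubR1 was named after these values were seen. The pooled summit nearest the start of mle, 48 bp upstream, ranked 15978 in the pooled list. The best peaks of its promoter window ranked 13256, 13880 and 23577 in replicates 1, 2 and 3. Another pooled summit, 4371 bp upstream and inside Src42A, had pooled rank 11738 and appeared in all 3 replicate lists with ranks 8043, 29391 and 18318.

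Clamp (2L, 22165720 to 22169143, minus strand) was the one member whose thresholded summit lay in the gene and outside any promoter window. It was in the 5′ UTR, 602 bp downstream of the start. It ranked 5305 in the pooled list, 5635 in replicate 1, 4101 in replicate 2 and 6295 in replicate 3. Replicate 3 thus missed the top ranks narrowly. In the promoter window of Clamp the pooled list had no summit, and replicates 1 and 2 had weak ones of rank 14721 and 7406.

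**Figure D2:**
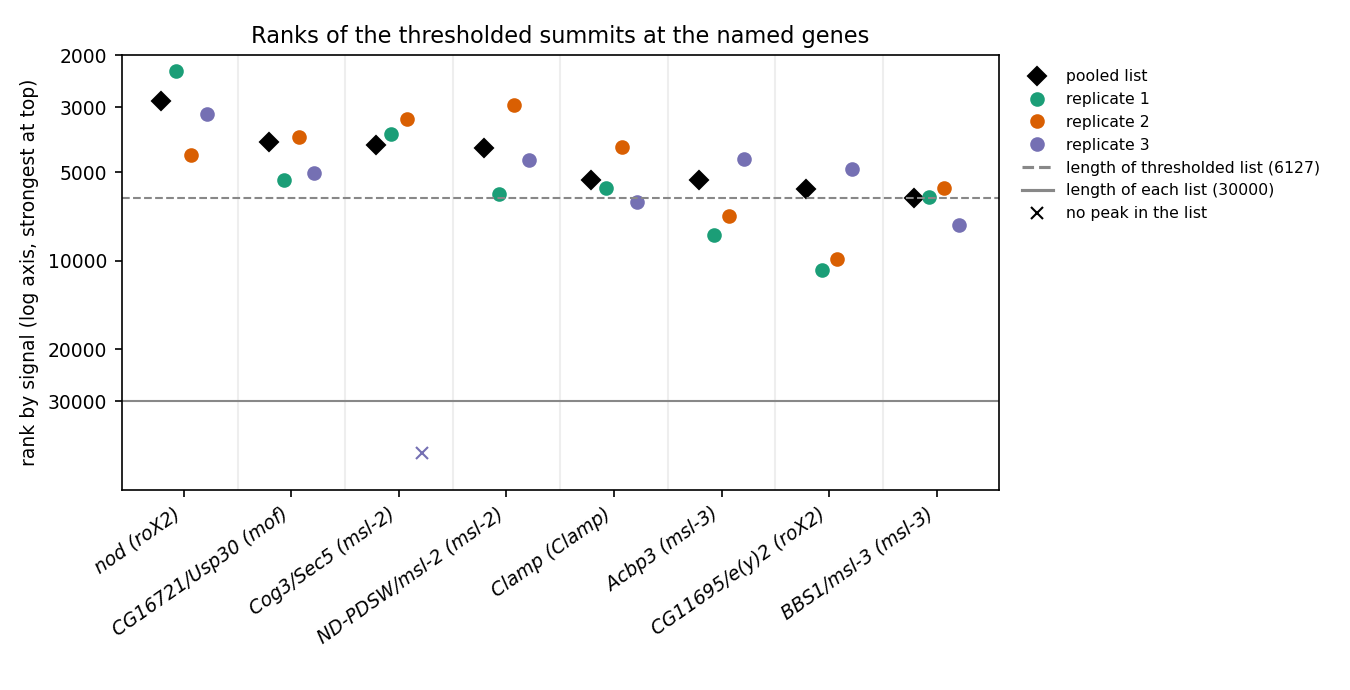
Rank by signal (log axis, strongest at the top) of the 8 thresholded summits in the pooled list (diamonds) and in replicates 1 to 3 (circles), labelled by the promoter or gene that holds the summit and, in brackets, the dosage compensation gene nearby. The nod, CG16721/Usp30 and ND-PDSW/msl-2 sites have all 3 circles above the dashed line at rank 6127, and the cross marks replicate 3 without a peak at Cog3/Sec5.

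Support by the replicates was uneven over these 8 sites. Of the 8 summits, 3 were top-ranked in all replicates (nod, Usp30 and CG16721, and msl-2 with ND-PDSW), while 69.3% of all thresholded summits were. That share covers the whole list, strongest peaks included, whereas the 8 had a median rank of 4722, past the middle rank of 3064. A share for summits of like rank was not taken, so the 2 figures are not matched for strength. A further 3 were top-ranked in 2 replicates and 2 in a single replicate, each time replicate 3. With all 30000 peaks of each replicate list counted, 7 of the 8 had a peak in every replicate, against 97.2% of all thresholded summits; the exception was the Cog3 and Sec5 site. The thresholded list was made from these replicates, so this support is not independent of it. Of the 20 pooled summits below the threshold in these loci, 6 had a peak in all 3 replicate lists, against 35.2% of the 23873 such summits genome-wide. Among the 20, 4 lay within 500 bp of a thresholded summit, and whether they are shoulders of stronger peaks was not tested. Those before the starts of msl-2 and msl-3 are counted among the 6. In replicates 1 and 3 they matched the same peaks as the thresholded summits beside them, so that support is not separate.

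The starts of the genes themselves fell into an order by pooled rank: msl-2 (4139), msl-3 (6117), msl-1 (7020), mof (7402), roX1 (10571) and mle (15978). The starts of roX2 and Clamp had no pooled summit. Compared within each replicate, neighbours in this order did not all keep it. In replicates 1, 2 and 3, msl-2 had ranks 5947, 2964 and 4557, each ahead of msl-3 with 6065, 5643 and 7537. Against msl-3, msl-1 ranked behind in replicate 1 (6492) and ahead in replicate 3 (6448), and replicate 2 had no peak at msl-1. The ranks of mof in replicates 2 and 3 (12214 and 8475) were ahead of those of roX1 (12413 and 11395). In replicate 1 mof ranked 10497 and roX1 had no peak. The peak of mle ranked behind that of roX1 in replicates 2 and 3 (13880 and 23577), but in replicate 1 mle had one, of rank 13256. Among the 6 coding members, 2 had a thresholded summit in their own promoter window, against 26.4% of protein-coding genes. In the pooled list it was 5 of 6, against 52.1%. It was 6 of 6 in replicate 1 (51.5% of protein-coding genes), 5 of 6 in replicate 2 (53.8%) and 5 of 6 in replicate 3 (52.0%). The replicate and pooled lists have a fixed length and hold weak peaks, so a summit in them is no call of binding.

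**Figure D3:**
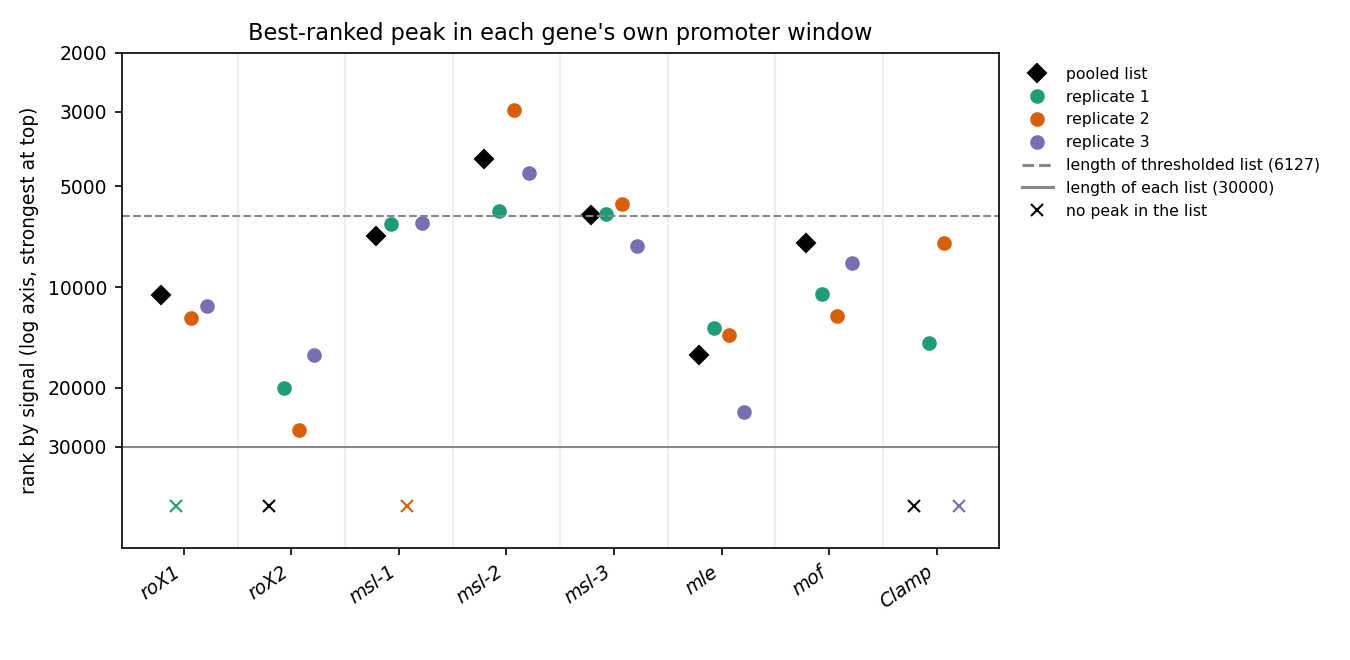
Best-ranked peak in the promoter window of each of the 8 genes, as rank by signal on a log axis with the strongest at the top; diamonds are the pooled list, circles replicates 1 to 3, and crosses mark a list with no peak there. Only msl-2 and msl-3 have the diamond above the dashed line at rank 6127, and only msl-2 has all 3 circles above it.

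Most of the sites lay near gene starts, but the rule that chose them kept only summits in a gene or within 5 kb of it. The su(Hw) consensus was at few of the sites, as it was at thresholded promoter summits at large. Of the 8 summits, 7 lay in a promoter window, against 53.1% of all thresholded summits, and 5 of these 7 lay in windows of a pair of genes. The 53.1% covers summits at any distance from genes, so it is not matched to the 8. The share of all thresholded promoter summits in windows of a pair of genes was not taken. A match to the consensus, 1 mismatch allowed, was found no more than 100 bp from 1 of the 8, the Acbp3 summit. It was at 21.6% of all thresholded summits and at 12.1% of those in promoter windows. The core TGCATA on either strand was also at 1 of the 8, the e(y)2 and CG11695 site, against 23.5%. No site had GAGAGAGA within 100 bp of its summit, as 1.93% of all thresholded summits had. CGATA, a word of BEAF-32 sites that also lies within TATCGATA, was within 100 bp of 2 summits, those at msl-3 and at Usp30, against 29.3%. GGTCACAC was in the window of the msl-2 summit, against 2.73% of all thresholded summits and 4.92% of those in promoters. At msl-3 the printed GGTCACAC lay outside the 100 bp window and was not counted. TATCGATA was at the msl-3 summit, against 4.18% of all and 7.41% of promoter summits. These matches describe letters in a window and say nothing of which protein sits there.

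The loci held more consensus matches than summits, and so did the genome. Outside the Y chromosome it held 40455 matches with up to 1 mismatch, beside 6127 thresholded summits. With up to 1 mismatch, 24 matches lay in the 8 genes and their flanks, and 1 had a thresholded summit within 100 bp, the Acbp3 one; genome-wide the share was 3.70%. A weaker pooled summit lay as near to 1 more, that in roX1. Exact matches numbered 2, and neither had a pooled summit near it. The first was inside mle, 1818 bp from the nearest pooled summit, and the second 1488 bp past the end of roX1, 986 bp from it. Genome-wide 16.5% of exact matches had a thresholded summit within 100 bp. GAGAGAGA occurred in 4 places in the 8 loci, all inside genes: 2 in roX2, 1 in msl-1 and 1 in mle. Those in msl-1 and mle lay 7820 and 8927 bp from the nearest thresholded summit.

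The peak past roX2 was also compared with other promoter peaks by its ranks in the 3 replicates. Among 3611 protein-coding genes with a promoter summit found in all replicate lists, the closest by Euclidean distance of log10 ranks over the 3 replicates were CG32425, Hexo2 and Tango10. Hexo2 encodes a hexosaminidase. CG32425 had ranks 2441, 4224 and 3230 in replicates 1, 2 and 3, at a distance of 0.0384 from the peak past roX2. Hexo2 had ranks 2306, 4018 and 3078 at a distance of 0.0396. Tango10 had ranks 2365, 4027 and 3033 at a distance of 0.0447. None of the peaks at these 3 genes had the consensus with up to 1 mismatch, and neither had the peak past roX2.

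Genes that set or use the dosage compensation machinery were listed by role and counted by the same 5 kb rule. Of 41 such genes, 32 had a thresholded summit, beside the 59.2% of protein-coding genes given above; several are long, and a long gene has more room for a summit. Among regulators of sex determination and of msl-2, 12 of 13 had one. The switch gene Sxl, whose protein blocks msl-2 in females, had 7 within 5 kb, the strongest 3436 bp upstream with rank 782. Ythdc1, which encodes the nuclear reader of N6-methyladenosine, had a summit of rank 349 that lay 2006 bp past its 3′ end, in intergenic sequence. The intronic summit of how, a gene for an RNA-binding protein, ranked 407. A summit 1340 bp past the end of the methyltransferase gene Mettl14 ranked 1729. The gene vir was without one.

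Of the genes through which the embryo counts its X chromosomes, 4 of 9 had a summit. In 3 of them the best-ranked one was in the gene's own promoter window: the corepressor gene gro with rank 1191, da with rank 3145 and emc with rank 4452. The X-linked signal gene sisA had one 4189 bp upstream, with rank 3821, whereas sc, upd1, run, dpn and her had none. Of 6 genes of the NSL complex, which shares mof with the MSL complex, 5 had a summit, and in none was the best-ranked one in the gene's own promoter window. The strongest were near Rcd1 (rank 718, 4472 bp upstream), nsl1 (rank 1607, 1121 bp upstream), wds (rank 2053, 3611 bp upstream) and dgt1 (rank 5269, 2508 bp upstream). Rcd5 was the gene without one. Of 13 genes for chromatin proteins linked to the male X, 11 had a summit. Chro had one in its own promoter with rank 395, and Trl, the gene of the GA-binding GAGA factor, an intronic one with rank 449. Su(var)205, the HP1a gene, had one 1894 bp upstream with rank 709, and pzg one in its own promoter with rank 860. Nup153 and Mgtor, genes of nuclear pore proteins, had none.

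**Figure D4:**
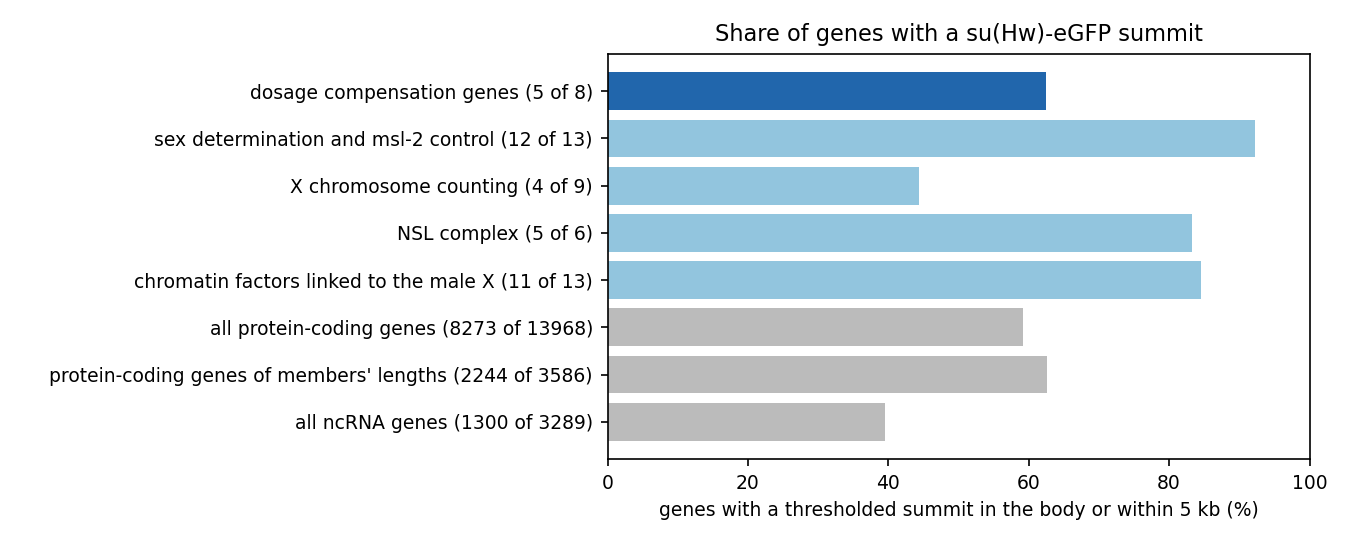
Percent of genes with a thresholded summit in the body or within 5 kb, as bars from 0, for the dosage compensation genes (5 of 8), 4 lists of related genes and 3 backgrounds in grey. The dosage compensation genes reach 62.5%, next to 62.6% of protein-coding genes of like length, and the lists range from 44.4% to 92.3%.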

How the data were processed

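The authors deposited peak lists in dm6 coordinates: 1 per replicate and 1 pooled list, each of 30000 peaks, and a list of 6127 peaks thresholded by the irreproducible discovery rate. The signal column was deposited by the authors on an undefined scale and was used only to rank peaks within a list. The deposited −log10 q-values tie at their highest value for 4732 thresholded peaks and rank nothing here. Names of the aligner and peak caller were not given in the sources used here, read depth is unknown, and the dm3 lists and the control were not analysed here. Sonicated fragments were 200 to 800 bp long, per the labels. The 6127 thresholded peaks equal the strongest of the pooled list, and no peak lay beyond a chromosome end of release 6, annotated by Ensembl release 115.

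A summit is the peak start plus the deposited offset, 1-based. Replicate summits matched within 200 bp, and motifs were searched within 100 bp on both strands. Summit classes were taken in the order of promoters, coding exons, other exons, introns and intergenic sequence, without transposable elements. The text names the 8 members, genes at their summits, up to 4 genes per related list by rank, and the 3 closest in rank; genes of these lists without a summit, and the thresholded summits between 5 and 10 kb away, were named after their values were seen. Members and lists were chosen with earlier results of these data known. No test was run, since there was 1 group. Mgtor, formerly Mtor, was looked up under its current name. Functions were tested on simulated positions. Python 3.11.15, numpy 2.4.6, pandas 2.3.3 and matplotlib 3.10.9 were used. Sequences are from the RefSeq release 6 genome.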

Additional observations from a re-analysis of the deposited data

How the results depend on the processing

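Of 49 counts under alternatives, 19 stayed within 1.5 times the reported count. With flanks of 1 kb, 4 of the 8 genes had a summit, and there were 4 summits, 2 of them top-ranked in all replicates, 3 in promoter windows and 0 with the consensus. With flanks of 10 kb, all 8 genes had one, and there were 18 summits, 9 top-ranked in all replicates, 13 in promoter windows and 6 with the consensus. In gene bodies alone, 2 genes had 2 summits, of which 0 were top-ranked in all replicates, 1 was in a promoter window and 0 had the consensus. The share of all genes was taken only for flanks of 5 kb. The gene counts under these alternatives thus have no background beside them, and a wider flank has more room for a summit at any gene. In the strongest 3064 peaks, 1 gene had 1 summit, in a promoter window, top-ranked in all replicates, with 0 consensus matches. With whole replicate lists, 7 summits had support from all replicates, and with an exact match 0 had the consensus. Merging summits within 500 bp changed none of the 5 counts.

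Leaving out each replicate in turn gave 3 to 5 genes, 3 to 6 summits, 3 to 5 in promoter windows and 0 to 0 with the consensus. Only summits top-ranked in both other replicates were kept here. The count supported by both others, also 3 to 6 and among the 49, was therefore fixed by the selection and is no measure of support. The lower counts came without replicate 1 and without replicate 2; the thresholded list itself still rests on all 3. No paired analysis was possible because there was 1 group. Read depth is unknown, so the absence of a summit at roX1, msl-1 or mle says only that none passed the authors' threshold.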

Other observations

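Between 5 and 10 kb from these genes lay 5 peaks with better ranks than any within 5 kb, at distances from 6199 to 8710 bp. Of the 10 thresholded summits between 5 and 10 kb away, 5 had the consensus with up to 1 mismatch within 100 bp, against 21.6% of all thresholded summits. A peak in the promoter window of melt, which encodes a regulator of growth and metabolism, lay 8710 bp upstream of msl-3 and ranked 580, with ranks 578, 592 and 607 in replicates 1, 2 and 3. A peak in an intron of Src42A, which encodes a Src-family kinase, lay 6204 bp upstream of mle and ranked 634, with ranks 701, 609 and 637. In introns of the noncoding RNA gene CR45668, peaks lay 6713 and 8435 bp upstream of mof with ranks 3497 and 1816. The last of the 5 with the consensus lay 8591 bp upstream of roX2, in the promoter windows of CG11699 and Polr2A, which encodes an RNA polymerase II subunit. It ranked 4336, so it and the CR45668 peak of rank 3497 are not among the 5 better-ranked peaks. The others of those better-ranked peaks lay near msl-1. They were in the promoter windows of Mst36Fa, with rank 1692, and of CG10383 and CG10338, with rank 2139. Neither had the consensus at that tolerance. These sites were named after their values were seen.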
